A study of Mus musculus with 30 samples.

Results

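The comparison described here is that of glucagon-producing alpha-cells made to express the transcription factor PDX1, with alpha-cells of mice without that factor's transgene, both sorted after the insulin-producing beta-cells of the islet had been ablated. Its members are 10 of the 30 libraries of the series, chosen by their labels. There are 6 libraries labelled aPdx1OE DT and 4 labelled ctl DT. The aPdx1OE DT mice carried Glucagon-rtTA, TetO-Cre, R26YFP, CAGPdx1 and RIP-DTR. In these mice a doxycycline-dependent activator made in glucagon-expressing cells switches on Cre, which marks the cells with YFP and releases the Pdx1 transgene. The ctl DT mice carried Glucagon-Venus, a fluorescent reporter of the glucagon gene, and RIP-DTR. RIP-DTR, shared by both groups, puts the diphtheria toxin (DT) receptor under the rat insulin promoter, so that the toxin kills beta-cells. DT was given to both groups at 2 months of age, and the cells were isolated by fluorescence-activated sorting 30 days after it. The driver, Cre and reporter alleles differ between the groups together with Pdx1, so their effects cannot be told apart from that of Pdx1. Nothing in the labels says whether the libraries came from separate animals, and p-values then measure only the spread between these samples. The other libraries came from 3-month-old mice with no RIP-DTR: 5 aPdx1OE noDT libraries (Glucagon-rtTA, TetO-Cre, R26YFP, CAG-Pdx1), 8 ctl noDT libraries (Glucagon-Venus) and 7 b-cell reference libraries (Insulin-mCherry). Library numbers below follow the order of deposit and are names only.

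PDX1 is a homeodomain transcription factor that is required for the pancreas to form. In the adult islet it is kept in beta-cells and a part of the delta-cells, where it binds the promoters of insulin and of genes that couple glucose to insulin secretion. Alpha-cells express the genes of glucagon (Gcg) and of the transcription factor IRX2 instead. Loss of nearly all beta-cells is known to make a small number of mouse alpha-cells start to produce insulin.

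The deposited values are on a log2 scale and have the same quartiles and top values in every library, as quantile normalization gives, so a gene's value reflects its rank. The median over all genes was 8.55 and the highest value was 22.57. Among the most abundant genes a difference is therefore a change of rank, and its size is fixed by the spacing of the top values (22.57, 20.54, 19.87 and lower). Values of different genes were not divided by length, and are compared here only between libraries. In sorted pools, fewer cells of a type and less RNA per cell cannot be told apart.

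One library went against its label. Pdx1 stood at 5.51 in aPdx1OE DT 5, under the limit of 8 that the comparison sets, while the other 5 aPdx1OE DT libraries lay between 11.53 and 12.59. Over the 16633 genes tested, aPdx1OE DT 5 correlated with the other aPdx1OE DT libraries at 0.826 to 0.904, with the ctl DT libraries at 0.874 to 0.909 and with the ctl noDT libraries at 0.923 to 0.993 (Pearson's r across genes, a description). Its correlation with ctl noDT 4, 0.993, was the highest of the 435 pairs of libraries. The next highest between libraries of different groups was 0.967, between aPdx1OE DT 5 and ctl noDT 3. The values of the 2 libraries were not identical, and 79 of 17775 genes had the same value in both. Whether aPdx1OE DT 5 was deposited under another group's label was not tested. Results are given with all 6 aPdx1OE DT libraries and then without aPdx1OE DT 5. That library was left out for its Pdx1 value. The p-values without it are conditional on this choice, above all for genes in which the same library stood apart. In the other groups, ctl noDT 8 had a Pdx1 value of 11.23, and b-cell reference 1 and 5 had Gcg levels that also went against their label.

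Both groups had the defining genes of alpha-cells. Gcg was the gene of highest value in each of the 4 ctl DT libraries and in 3 of the 6 aPdx1OE DT libraries, among them aPdx1OE DT 5. All 8 alpha-cell markers averaged above 8 in both groups. Of the 10 beta-cell markers, 4 averaged above 8 in aPdx1OE DT and 3 in ctl DT, and Mafa averaged under 3 in both. RNA of other cells was also present. The log2 of the summed level of 16 acinar-cell markers ran from 10.1 to 18.6 in aPdx1OE DT, against 12.8 to 18.4 in ctl DT. That of 13 leukocyte and macrophage markers ran from 8.87 to 16.04, against 12.1 to 16.2 in ctl DT. Rn18s-rs5, a ribosomal RNA sequence, lay between 19.87 and 22.57 in aPdx1OE DT, against 19.27 to 20.54 in ctl DT. With Rn18s-rs5 as a covariate the genes called below came to 190, and Pdx1 (adjusted p = 0.061) and Ins1 (adjusted p = 0.11) were not among them. None of the markers of delta, PP, acinar, duct, endothelial, mesenchymal, leukocyte, Schwann or erythroid cells passed the test with or without aPdx1OE DT 5.

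With all 30 libraries in 1 linear model (limma, adjusted p under 0.05 by Benjamini-Hochberg), 349 genes differed between aPdx1OE DT and ctl DT, 2.10% of those tested. Of these, 296 rose (1.78%) and 53 fell (0.319%) in aPdx1OE DT. The median log2 fold change of the risers was 1.48, and 104 of them rose by 2 or more on the log2 scale. The median of the fallers was -1.62. In aPdx1OE DT 5, 130 of the 296 risers lay within the range of the ctl DT libraries. All 6 aPdx1OE DT libraries stood above all 4 ctl DT libraries for 113 of the risers, and below them for 28 of the 53 fallers. Across all genes tested, 1.15% stood apart upward in this way and 0.517% downward.

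Leaving out aPdx1OE DT 5, 930 genes passed, of which 658 rose (3.96%) and 272 fell (1.64%). These included 294 of the 296 risers and 52 of the 53 fallers of the 6 libraries. The count also moved with other libraries. It was 138 without ctl DT 3, 599 without ctl DT 4, and 183, 197, 181 and 203 without aPdx1OE DT 1, 2, 4 and 6. A model of the 10 libraries alone gave 0 genes, with 1377 at an unadjusted p under 0.05, and a model of the 9 libraries without aPdx1OE DT 5 gave 271, of which 142 were among the 349. Among 34 named genes called with all 6 libraries, 13 kept the call whichever 1 of the 10 libraries was left out. These were Chrm3, Ffar1, Ffar3, Fgl2, G6pc2, Igsf1, Pcx, Pmp22, Rel, Tagln3, Trpm5, Wdr55 and Zfp747. The other 21, in which 1 to 9 omissions ended the call, reached adjusted p of up to 0.177.

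Pdx1 and the 3 genes that mark this comparison rose together, and each was high in the same 5 libraries. Pdx1 (chromosome 5, 147269959 to 147275848, GRCm38) had values of 11.87, 12.59, 11.53, 11.64, 5.51 and 11.65 in aPdx1OE DT 1 to 6, against 6.52, 6.70, 3.71 and 5.63 in ctl DT. The log2 fold change was 5.16 ± 1.21 (SE, adjusted p = 0.0259). Without aPdx1OE DT 5, which was set aside for its Pdx1 value, the difference was 6.22, given as a description. The call of the 6 libraries was lost without aPdx1OE DT 1, 2, 4 or 6 or ctl DT 3 (adjusted p 0.0521 to 0.0990). Reads of the transgene and of the native gene were not separated. The 5 libraries were at the level of beta-cells, since the b-cell reference libraries averaged 11.20 ± 0.48 (SD, n = 7).

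G6pc2, the islet glucose-6-phosphatase catalytic subunit, had 14.17, 14.25, 14.41, 13.90, 9.41 and 14.35 in aPdx1OE DT, against 8.90, 10.09, 8.11 and 9.70 in ctl DT. It rose by 4.22 ± 0.84 (SE, adjusted p = 0.00904), and by 5.02 ± 0.65 (adjusted p = 6.5e-05) without aPdx1OE DT 5. Ffar1 encodes a receptor of long-chain fatty acids that potentiates insulin secretion. Its values were 8.26, 8.35, 8.5, 8.31, 4.51 and 9.82 in aPdx1OE DT, against 5.64, 3.68, 3.97 and 4.46 in ctl DT. The fold change was 3.52 ± 0.60 (adjusted p = 0.00199), and 4.21 ± 0.45 (adjusted p = 1.7e-06) without aPdx1OE DT 5. Tagln3, a calponin-family actin-binding protein known from neurons, had 12.12, 13.35, 11.98, 9.90, 5.67 and 11.57 in aPdx1OE DT, against 5.85, 5.73, 3.71 and 5.75 in ctl DT. Its rise, 5.51 ± 1.09 (adjusted p = 0.00875), was the highest among the risers of the 6 libraries. The b-cell reference averaged 5.82 ± 0.54 for Tagln3 (SD, n = 7), near the ctl DT level. For all 4 genes, aPdx1OE DT 5 lay within the ctl DT range and the other 5 libraries lay above it. Leaving that library out raised their differences and narrowed their spread, so the adjusted p without it are not independent of the choice.

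The 300 bases around an annotated start (250 before, 50 after) of 5 genes are shown. PDX1 is a DNA-binding factor, and these genes were high in the same 5 libraries. Tagln3, Ins1, G6pc2 and Ffar1 passed the test with all 6 libraries, and Iapp passed without aPdx1OE DT 5. The sequences are RefSeq's, build GRCm38.p6, written 5′ to 3′ on the strand of the gene. GENCODE places the 5′ ends of Ffar1 (30861564) and Tagln3 (45724608) upstream of the starts used, inside the windows. Part of these 2 windows before the start used is thus transcribed in that annotation. Capitals mark TAATTA or CTAATG on either strand, 2 core motifs of homeodomain factors.
Ins1, chr19:52264047-52264346, plus strand: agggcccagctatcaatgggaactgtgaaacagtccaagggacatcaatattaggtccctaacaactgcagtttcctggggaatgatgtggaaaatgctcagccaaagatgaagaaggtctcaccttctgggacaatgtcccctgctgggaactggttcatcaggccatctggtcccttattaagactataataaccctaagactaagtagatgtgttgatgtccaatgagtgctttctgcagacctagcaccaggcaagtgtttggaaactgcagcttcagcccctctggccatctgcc
Iapp, chr6:142298175-142298474, plus strand: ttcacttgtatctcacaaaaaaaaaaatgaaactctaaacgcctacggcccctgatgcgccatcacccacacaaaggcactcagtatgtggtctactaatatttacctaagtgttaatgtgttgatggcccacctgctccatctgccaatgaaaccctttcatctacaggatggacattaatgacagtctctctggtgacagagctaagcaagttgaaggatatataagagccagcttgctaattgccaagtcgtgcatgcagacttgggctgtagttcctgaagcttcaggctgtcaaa
G6pc2, chr2:69210823-69211122, plus strand: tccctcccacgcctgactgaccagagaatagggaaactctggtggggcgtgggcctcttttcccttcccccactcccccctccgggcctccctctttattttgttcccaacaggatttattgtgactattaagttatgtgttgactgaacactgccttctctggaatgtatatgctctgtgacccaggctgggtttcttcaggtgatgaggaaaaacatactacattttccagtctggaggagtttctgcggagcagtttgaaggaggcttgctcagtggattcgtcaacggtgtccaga
Ffar1, chr7:30861421-30861720, minus strand: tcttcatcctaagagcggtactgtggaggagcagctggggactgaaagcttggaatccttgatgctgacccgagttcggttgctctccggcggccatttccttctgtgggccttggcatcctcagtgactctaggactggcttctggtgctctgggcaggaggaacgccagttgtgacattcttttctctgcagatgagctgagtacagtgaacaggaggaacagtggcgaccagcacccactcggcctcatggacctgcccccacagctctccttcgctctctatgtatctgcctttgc
Tagln3, chr16:45724482-45724781, minus strand: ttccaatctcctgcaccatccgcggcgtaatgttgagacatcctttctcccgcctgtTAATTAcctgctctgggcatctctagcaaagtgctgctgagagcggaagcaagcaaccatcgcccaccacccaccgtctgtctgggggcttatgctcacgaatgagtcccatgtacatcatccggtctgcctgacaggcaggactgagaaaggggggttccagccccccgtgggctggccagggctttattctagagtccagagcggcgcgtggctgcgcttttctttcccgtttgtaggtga

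One match was found, TAATTA in the Tagln3 window, beginning 193 bases before the start on which the window was set. The windows of Ins1, Iapp, G6pc2 and Ffar1 held neither motif, which says only that these letters are not in them. Among 193 risers with a promoter in the table, 9.33% held at least 1 of the motifs, against 9.0% of 10257 genes tested. TAATTA alone was in 4.66% of the risers' promoters, against 3.35% of the genes tested, and CTAATG in 5.18%, against 5.96%. The share of risers with a motif thus lay near that of all genes.

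**Figure D1:**
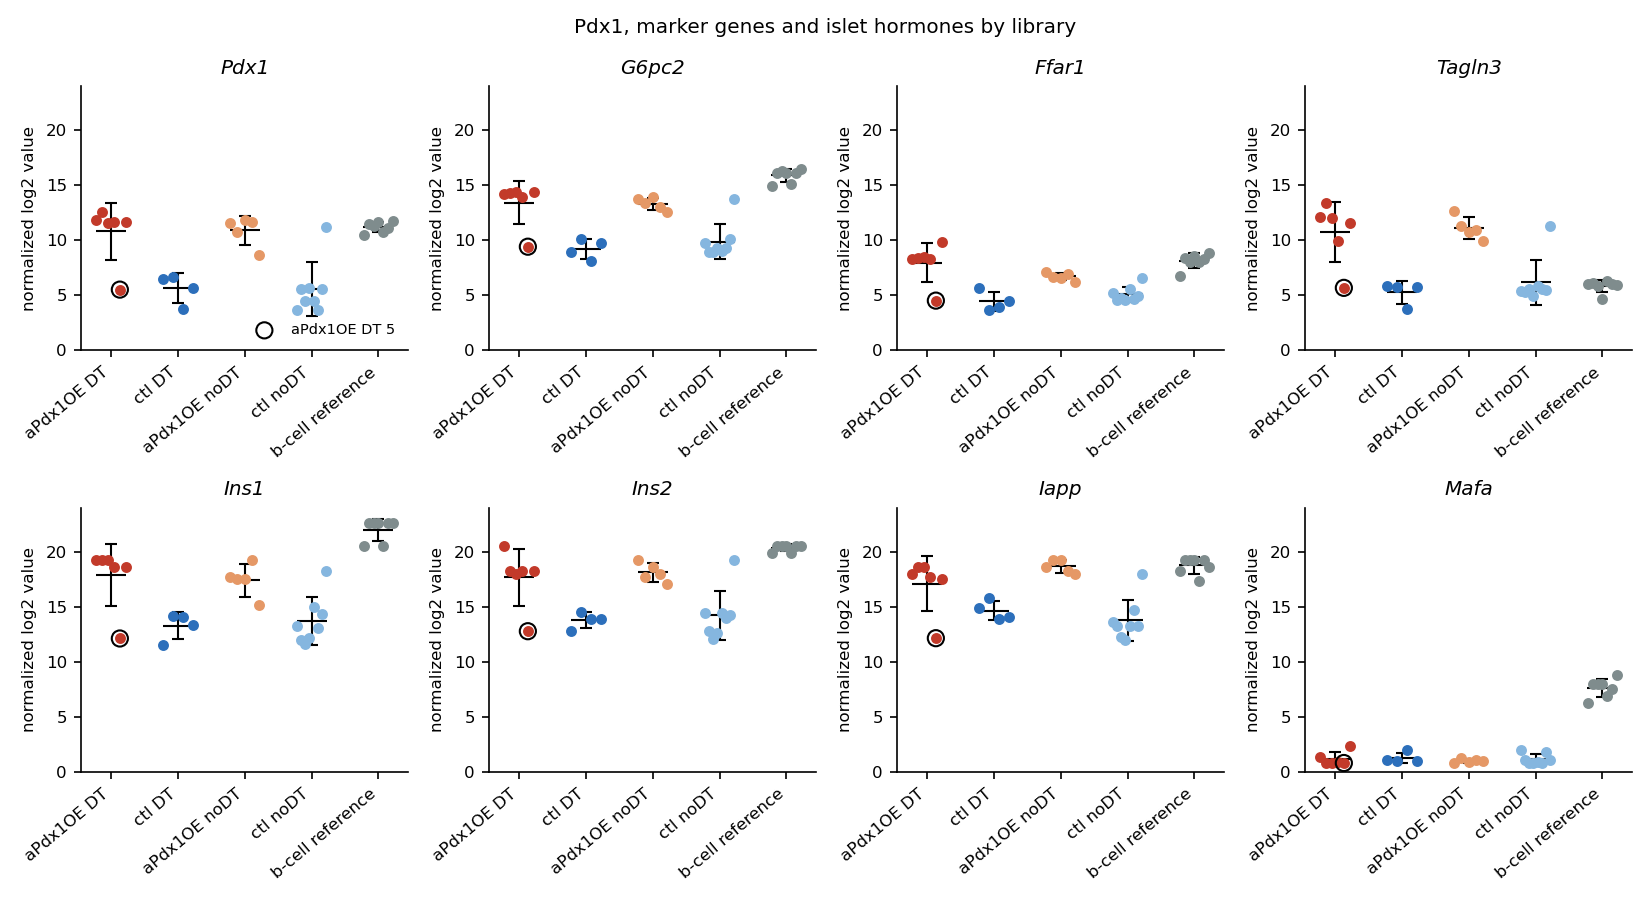
Normalized log2 value (vertical axis) of 8 genes in each library of the 5 groups (horizontal axis). Points are libraries, bars are the mean and 1 SD, and the circle marks aPdx1OE DT 5, which lies with ctl DT for Pdx1, G6pc2, Tagln3 and Ins1 while the other 5 aPdx1OE DT libraries lie above it. For Mafa, the alpha-cell libraries lie at the floor and the b-cell reference libraries above it.

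The insulin genes were high in the same 5 libraries, while the other islet hormones did not pass the test with all 6. Ins1 and Ins2 encode the 2 mouse insulins, which are close copies, so the authors' counting could divide their reads in an uncertain way. Ins1 had 19.27, 19.27, 19.27, 18.63, 12.11 and 18.63 in aPdx1OE DT, against 11.52, 14.15, 14.03 and 13.34 in ctl DT. It rose by 4.61 ± 1.24 (adjusted p = 0.0487), and by 5.76 ± 0.99 (adjusted p = 0.000956) without aPdx1OE DT 5. The Ins1 call was lost when any 1 of the other 9 libraries was left out (adjusted p 0.0563 to 0.100). Ins2 had 20.54, 18.27, 17.92, 18.27, 12.77 and 18.27 in aPdx1OE DT, against 12.83, 14.51, 13.91 and 13.86 in ctl DT. Its fold change of 3.90 ± 1.10 missed the threshold (adjusted p = 0.0604), and passed it without aPdx1OE DT 5 (4.88 ± 0.91, adjusted p = 0.00206). Iapp, islet amyloid polypeptide, which is co-secreted with insulin, had 17.92, 18.63, 18.63, 17.68, 12.13 and 17.47 in aPdx1OE DT, against 14.86, 15.75, 13.84 and 14.03 in ctl DT. Its fold change was 2.46 ± 1.01 (adjusted p = 0.212), and 3.45 ± 0.78 (adjusted p = 0.00980) without aPdx1OE DT 5.

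The glucagon gene had 18.63, 22.57, 20.54, 22.57, 22.57 and 19.27 in aPdx1OE DT, against 22.57 in each ctl DT library, a difference of -1.54 ± 1.24 (adjusted p = 0.565). Sst, the hormone of delta-cells, ran from 13.48 to 17.47 in aPdx1OE DT, against 14.84 to 17.68 in ctl DT, and the groups overlapped. Ppy, pancreatic polypeptide, averaged 17.29 ± 0.79 in aPdx1OE DT (SD, n = 6), against 18.37 ± 0.34 in ctl DT (n = 4). All 6 aPdx1OE DT libraries stood below all 4 ctl DT libraries for Ppy. The exact permutation test over the 10 libraries gave p = 0.0048, unadjusted and the smallest it can give, and the limma test did not pass (adjusted p = 0.546). In all, 1 of the 12 islet hormones and peptides tested rose, where 1.78% of all genes did, and none fell. When aPdx1OE DT 5 was left out, 4 rose, where 3.96% of all genes did. These were Ins1, Ins2, Iapp and Ucn3, the beta-cell maturity peptide urocortin 3 (4.13 ± 0.70, adjusted p = 0.000554). The median log2 fold change of the list was -0.24, and 0.22 without aPdx1OE DT 5, against -0.002 and -0.004 over all genes tested.

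The transcription factors of mature beta-cells, Pdx1 apart, did not pass the test with all 6 libraries. Mafa, the activator of insulin and of the mature programme, lay between 0.76 and 2.35 in aPdx1OE DT, against 0.99 to 2.00 in ctl DT, at the floor of the data. Nkx6-1, which keeps beta-cells from alpha-cell fate, had 5.90, 6.39, 6.79, 6.07, 5.89 and 7.66, against 6.50, 7.73, 5.84 and 6.66 in ctl DT (difference -0.23 ± 0.44, adjusted p = 0.833). The b-cell reference libraries were above ctl noDT by 6.47 for Mafa and by 5.62 for Nkx6-1. Of 15 beta-cell transcription factors tested, Pdx1 alone passed, and without aPdx1OE DT 5 also Foxo1 (0.79 ± 0.24, adjusted p = 0.0415) and Mnx1 (2.83 ± 0.65, adjusted p = 0.00762). Of all genes tested, 1.78% rose with all 6 libraries and 3.96% without aPdx1OE DT 5. Mnx1 is a homeobox gene that suppresses alternative fates in beta-cells, and its level was low, 3.54 ± 1.75 in aPdx1OE DT (SD, n = 6), against 1.26 ± 0.49 in ctl DT (n = 4).

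No alpha-cell transcription factor passed the test. Irx2, a homeobox gene of alpha-cells, ran from 10.87 to 12.18 in aPdx1OE DT, against 11.45 to 12.14 in ctl DT. The groups overlapped, and the difference was -0.41 ± 0.66 (adjusted p = 0.799). For the 6 factors tested the count was 0 with and without aPdx1OE DT 5, and the median of the list was -0.53 and -0.73. Among 14 alpha-cell effector genes none passed with all 6 libraries. The fit without aPdx1OE DT 5 had 4 that fell, where 1.64% of all genes did. These were Ttr (-3.30 ± 0.77, adjusted p = 0.0119), the amino acid transporter Slc7a2 (-1.26 ± 0.38, adjusted p = 0.0437), Slc38a5 (-1.57 ± 0.48, adjusted p = 0.0481) and Slc38a4 (-0.59 ± 0.17, adjusted p = 0.0415). Transthyretin (Ttr), a thyroid-hormone carrier abundant in alpha-cells, had 16.75, 17.09, 16.28, 16.37, 20.54 and 16.47 in aPdx1OE DT, against 19.87, 20.54, 20.54 and 18.63 in ctl DT. The value of aPdx1OE DT 5 was at the ctl DT level, and the other 5 libraries were below all of ctl DT.

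The 10 tested genes reported to be bound or controlled by PDX1 in beta-cells gave 3 risers, Ffar1, G6pc2 and Ins1, where 1.78% of all genes rose. Ffar1 and G6pc2 also mark this comparison, so part of the count is fixed by the choice of genes. Without aPdx1OE DT 5, 7 of the 10 rose, where 3.96% of all genes did. Among the additional genes were Ins2, Iapp and the glucose transporter Slc2a2. Slc2a2 had 8.01, 7.80, 8.80, 8.36, 5.25 and 5.86 in aPdx1OE DT, against 4.92, 5.52, 6.07 and 5.88 in ctl DT. Its fold change was 1.75 ± 0.59 (adjusted p = 0.112), and 2.17 ± 0.55 (adjusted p = 0.0170) without aPdx1OE DT 5. For Slc2a2, aPdx1OE DT 6 lay within the ctl DT range beside aPdx1OE DT 5. The median of the list was 2.11, and 2.81 without aPdx1OE DT 5. The b-cell reference level of Slc2a2 was higher than that of ctl noDT by 8.40.

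**Figure D2:**
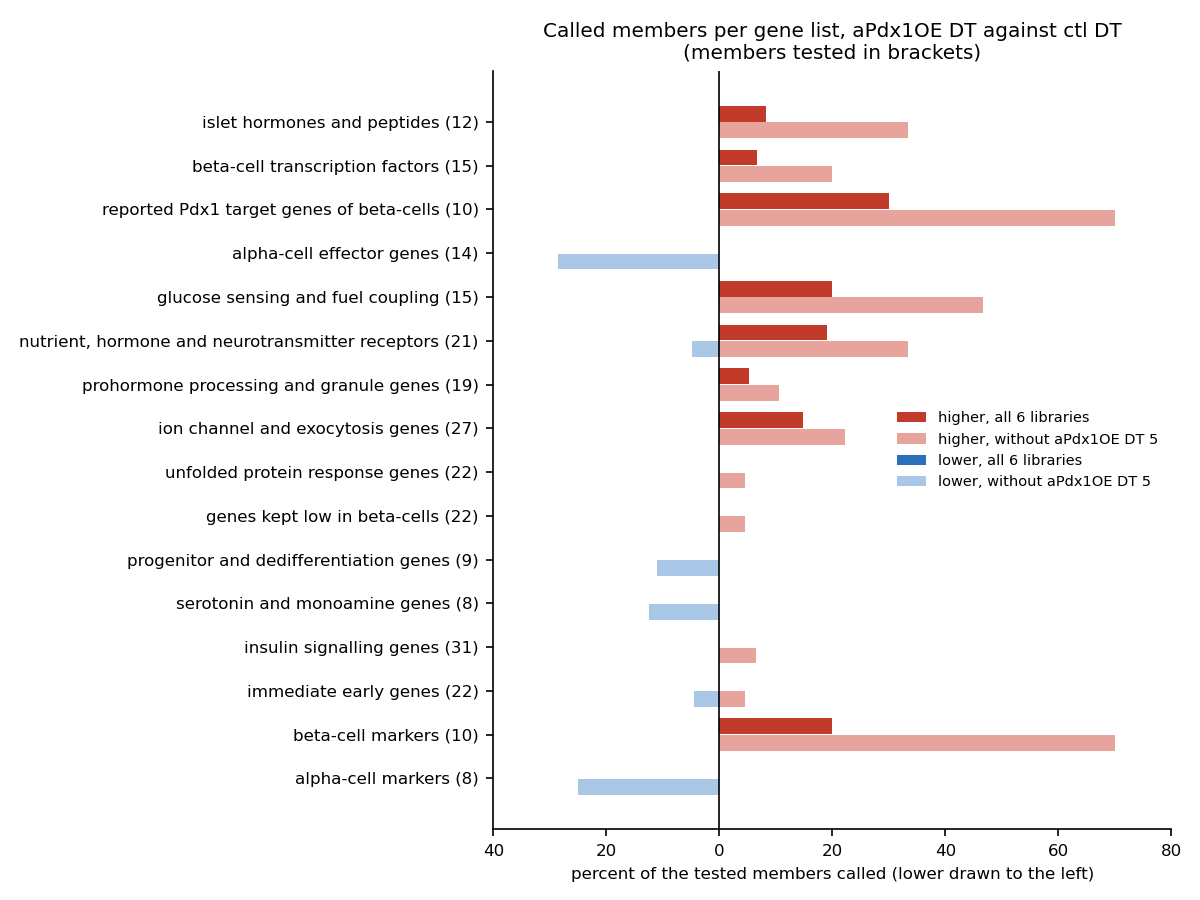
Percent of the tested members of each gene list (vertical axis, number tested in brackets) that passed limma's test, higher to the right and lower to the left. Darker bars use all 6 aPdx1OE DT libraries and paler bars leave out aPdx1OE DT 5. The PDX1 target list reaches 3 of 10 and 7 of 10, counting Ffar1 and G6pc2, which mark the comparison. Of all genes tested, 1.78% rose with all 6 libraries and 3.96% without aPdx1OE DT 5. No list had a member that fell with all 6 libraries.

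Genes of glucose sensing rose in part. Of 15 tested, 7 rose without aPdx1OE DT 5, where 3.96% of all genes did. With all 6 libraries 3 rose, where 1.78% of all genes did, and none fell. Beside G6pc2 these were Pcx, pyruvate carboxylase, which feeds the citrate cycle (1.60 ± 0.35, adjusted p = 0.0119), and Abcc8, the sulfonylurea receptor of the ATP-sensitive potassium channel (0.79 ± 0.22, adjusted p = 0.0480). The Abcc8 call was lost in 7 of the 10 omissions of 1 library (adjusted p 0.0579 to 0.130). Between the b-cell reference and ctl noDT, Abcc8 differed by -0.36 (adjusted p = 0.11). Pcx had 8.89, 9.53, 8.73, 9.29, 7.73 and 9.07 in aPdx1OE DT, against 7.77, 7.60, 7.51 and 6.21 in ctl DT. Without aPdx1OE DT 5 the called members of the list included Slc2a2, Gpd2 (0.68, adjusted p = 0.0289) and the sodium-glucose transporter Slc5a1 (4.55 ± 1.10, adjusted p = 0.0143).

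The genes of 3 of the 4 free fatty acid receptors tested rose, and these 3 are neighbours. Ffar2 and Ffar3 encode receptors of short-chain fatty acids, and with Ffar1 they lie in the order Ffar2, Ffar3, Ffar1 within 43.2 kb of chromosome 7 (30818348 to 30861564, GRCm38, GENCODE annotation). Ffar3 had 7.81, 7.62, 8.04, 8.0, 7.21 and 9.69 in aPdx1OE DT, against 1.07, 4.85, 5.92 and 6.28 in ctl DT. Its groups did not overlap, and it rose by 3.53 ± 0.67 (adjusted p = 0.00531). Ffar2 had 8.17, 8.57, 8.37, 9.10, 9.50 and 9.37, against 7.38, 8.45, 6.28 and 8.05 in ctl DT, and rose by 1.31 ± 0.31 (adjusted p = 0.0210, and 0.128 without ctl DT 3). Both also passed without aPdx1OE DT 5. For Ffar2 this library was the highest of its group, and for Ffar3 it was the lowest of its group and above all ctl DT libraries. For Ffar2, aPdx1OE DT averaged 8.85, ctl DT 7.54 and ctl noDT 9.42. The Ffar3 means were 8.06, 4.53 and 6.95 in the same order. In aPdx1OE noDT against ctl noDT, Ffar2 differed by -0.61 ± 0.27 (adjusted p = 0.222) and Ffar3 by 0.98 ± 0.59 (adjusted p = 0.417). Ffar4, the other receptor of long-chain fatty acids, ran from 9.43 to 10.72 in aPdx1OE DT, against 9.36 to 10.54 in ctl DT, and differed by -0.02 ± 0.30 (adjusted p = 0.985). Chrm3, the muscarinic receptor through which acetylcholine raises insulin secretion, rose by 3.31 ± 0.70 (adjusted p = 0.0115). In all, 4 of 21 receptor genes rose, where 1.78% of all genes did, and none fell. With aPdx1OE DT 5 left out, 7 rose, where 3.96% of all genes did. Among them were the GLP-1 receptor gene Glp1r (2.47 ± 0.62, adjusted p = 0.0177), the calcium-sensing receptor gene Casr (1.41, adjusted p = 0.0119) and Adra2a. In that fit the glutamate receptor gene Gria3 fell (-1.18 ± 0.34, adjusted p = 0.0358), where 1.64% of all genes did.

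Of 27 ion channel and exocytosis genes, 4 rose and none fell, and 6 rose without aPdx1OE DT 5. Of all genes, 1.78% rose with all 6 libraries and 3.96% without aPdx1OE DT 5. Trpm5, a calcium-activated cation channel of beta-cells and taste cells, had 6.98, 8.03, 7.55, 7.47, 4.69 and 9.16 in aPdx1OE DT, against 3.06, 3.44, 4.30 and 3.95 in ctl DT. All 6 libraries were above all 4, with a rise of 3.62 ± 0.78 (adjusted p = 0.0122). The lowest of the 6 was aPdx1OE DT 5, near the ctl noDT mean of 4.98 ± 1.95 (SD, n = 8). Ryr3, an intracellular calcium release channel, rose by 3.18 ± 0.77 (adjusted p = 0.0283), Syt13, an atypical synaptotagmin, by 0.87 ± 0.22 (adjusted p = 0.0294) and Cacna1c, an L-type calcium channel subunit, by 0.68 ± 0.18 (adjusted p = 0.0392). For Cacna1c, aPdx1OE DT averaged 12.09, ctl DT 11.41 and ctl noDT 12.17. The Cacna1c call was lost in 7 of the 10 omissions of 1 library. Of 19 prohormone processing and granule genes, Scg3, a granin that helps sort cargo to granules, rose by 1.02 ± 0.26 (adjusted p = 0.0310), with 15.57 to 16.19 in aPdx1OE DT, against 14.67 to 14.99 in ctl DT. The Scg3 means were 15.86 in aPdx1OE DT, 14.84 in ctl DT and 15.72 in ctl noDT. Ero1lb was called as well when aPdx1OE DT 5 was left out (1.24, adjusted p = 0.0429). That made 1 of 19 with all 6 libraries and 2 of 19 without aPdx1OE DT 5, where 1.78% and 3.96% of all genes rose. Pcsk1, the prohormone convertase of proinsulin, averaged 6.97 ± 1.03 in aPdx1OE DT (SD, n = 6), against 6.56 ± 1.38 in ctl DT (n = 4; adjusted p = 0.761). In the b-cell reference, Pcsk1 was 7.44 above ctl noDT.

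No gene passed among 22 genes of the unfolded protein response, 22 genes kept low in beta-cells, 9 progenitor genes, 8 serotonin genes, 31 insulin signalling genes, 8 Hedgehog genes or 22 immediate early genes. The medians of these lists ran from -0.45 to 0.35 in log2 fold change. Without aPdx1OE DT 5, Calr, Hk1, Pik3r1, Foxo1 and Egr3 rose, and Myc, Ddc and Nr4a3 fell. These are 4.1% and 2.46% of the 122 members of the 7 lists, near the 3.96% and 1.64% of all genes in that fit. Insr, the insulin receptor, differed by 0.11 ± 0.16 (adjusted p = 0.768) and Smo, the Hedgehog signal transducer, by 0.30 ± 0.38 (adjusted p = 0.736).

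Genes whose mean in the higher group was above the median of all values, 8.55, were ranked by fold change if they passed both with and without aPdx1OE DT 5. The 12 highest of them were Tagln3, Pdx1, Ins1, G6pc2, Ppp1r1a, Igsf1, Defb1, Kcnip1, Mlxipl, Ryr3, Cacna2d3 and Fgl2. Ppp1r1a encodes an inhibitor of protein phosphatase 1, and had 13.63, 13.38, 12.87, 12.53, 7.96 and 12.90 in aPdx1OE DT, against 8.61, 9.36, 7.45 and 7.90 in ctl DT. Mlxipl encodes ChREBP, the glucose-responsive transcription factor, and had 14.32, 13.98, 13.54, 14.74, 9.64 and 14.23, against 9.37, 10.92, 10.23 and 10.39 in ctl DT. Their fold changes were 3.88 ± 0.93 (adjusted p = 0.0284) and 3.18 ± 0.83 (adjusted p = 0.0428). Igsf1, an immunoglobulin-superfamily membrane protein, rose by 3.70 ± 0.76 (adjusted p = 0.00904), Defb1, a beta-defensin, by 3.38 ± 0.88 (adjusted p = 0.0413) and Kcnip1, a regulator of potassium channels, by 3.27 ± 0.83 (adjusted p = 0.0377). Cacna2d3, a calcium channel auxiliary subunit, rose by 3.15 ± 0.82 (adjusted p = 0.0398), and Fgl2, a secreted fibrinogen-like protein, by 3.05 ± 0.57 (adjusted p = 0.00531). Leaving out 1 library at a time, 8 of 10 omissions ended the calls of Kcnip1, Mlxipl and Cacna2d3. For Defb1 it was 7 and for Ppp1r1a 6. The b-cell reference was higher than ctl noDT for Ppp1r1a, Igsf1, Defb1, Kcnip1 and Mlxipl (3.19 to 4.83), lower for Fgl2 (-1.53), and did not pass the test for Tagln3, Ryr3 and Cacna2d3.

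**Figure D3:**
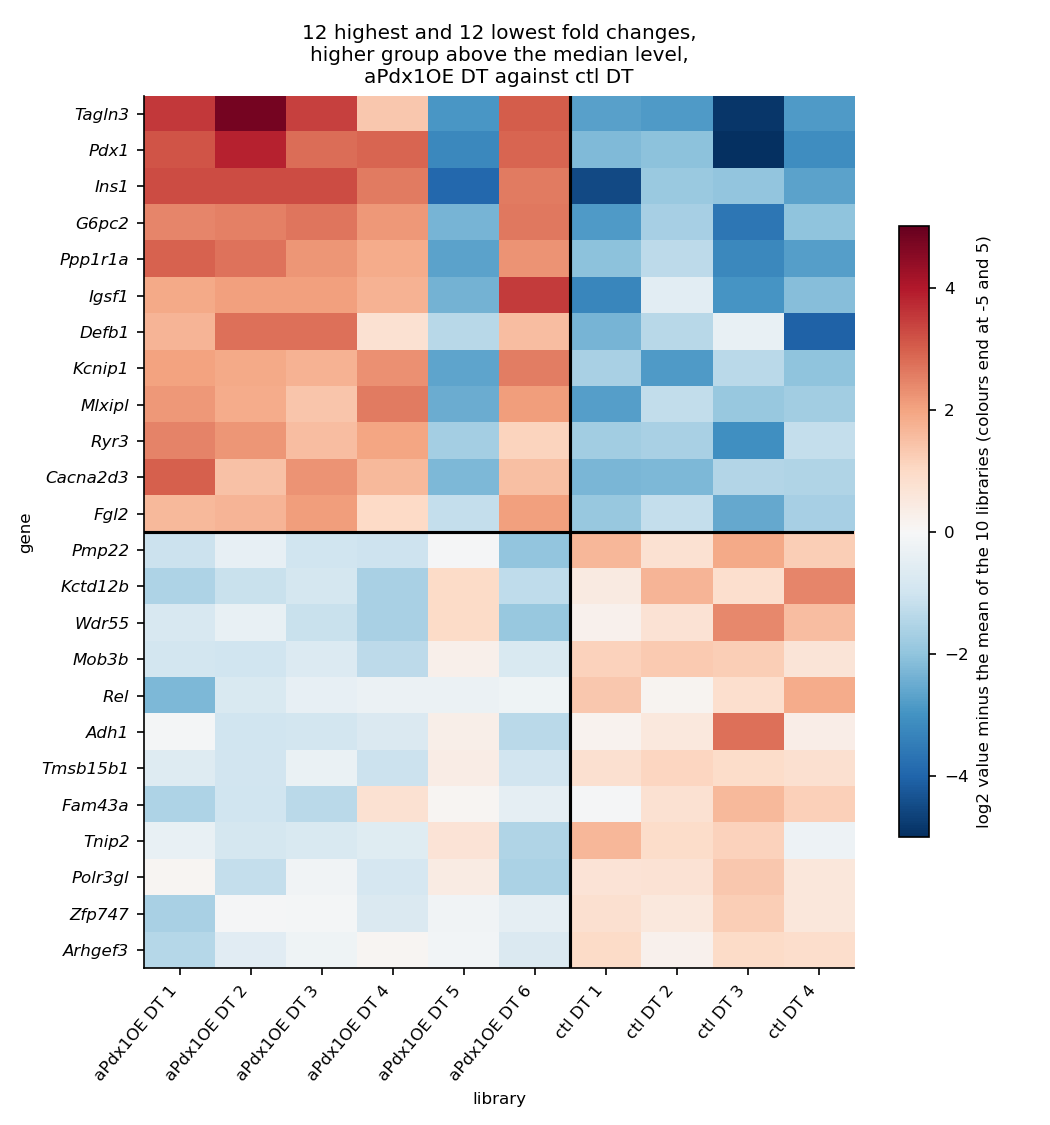
Log2 value minus the mean of the 10 libraries for the 12 highest and 12 lowest fold changes among called genes with a mean above the median in the higher group (rows), in aPdx1OE DT 1 to 6 and then ctl DT 1 to 4 (columns). Red is above and blue below that mean. The column of aPdx1OE DT 5 has the colours of ctl DT in the upper 12 rows.

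Under the same limit on level, the 12 lowest fold changes were Pmp22, Kctd12b, Wdr55, Mob3b, Rel, Adh1, Tmsb15b1, Fam43a, Tnip2, Polr3gl, Zfp747 and Arhgef3. Genes of lower level reached -3.75. Pmp22, a membrane protein known from myelin, had 8.14, 8.78, 8.21, 8.15, 9.12 and 7.23 in aPdx1OE DT, against 10.85, 9.95, 11.07 and 10.43 in ctl DT. It fell by 2.30 ± 0.39 on the log2 scale (adjusted p = 0.00180), with no overlap between the groups. The value of aPdx1OE DT 5 was 9.124, near the 9.12 of ctl noDT 4, and the ctl noDT libraries ran from 8.61 to 9.94. Rel, the NF-kappaB subunit c-Rel, had 5.41, 6.90, 7.27, 7.37, 7.38 and 7.45, against 9.002, 7.802, 8.503 and 9.52 in ctl DT (-1.74 ± 0.36, adjusted p = 0.00841). Tnip2, a protein that restrains NF-kappaB signalling, fell by 1.45 ± 0.33 (adjusted p = 0.0180). Adh1, an alcohol and retinol dehydrogenase, fell by 1.58 ± 0.36 (adjusted p = 0.0192, and 0.122 without ctl DT 3), where ctl DT 3 had 11.10 and the other 3 ctl DT libraries 8.53 to 8.86. The remaining 8 fell by 1.24 to 2.27, with adjusted p between 0.00531 and 0.0463. Of these, Mob3b lost its call in 8 of 10 omissions of 1 library and Fam43a in 7. Rel is also a gene of leukocytes, whose 13 markers moved by -1.12 at the median, and 0 of them were called. With the leukocyte marker mean as a covariate Rel differed by -1.63 ± 0.35 (adjusted p = 0.00808), and by -1.76 ± 0.35 (adjusted p = 0.00205) without aPdx1OE DT 5. The share of leukocyte RNA in the Rel difference was not tested.

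Of the genes above the same level that passed only without aPdx1OE DT 5, the 6 highest and 6 lowest fold changes are described next. Adra2a, the alpha-2A adrenergic receptor that inhibits insulin secretion, had 9.62, 9.60, 9.81, 9.71, 2.69 and 9.96 in aPdx1OE DT, against 5.71, 5.76, 2.00 and 5.21 in ctl DT (5.07 ± 0.96 without aPdx1OE DT 5, adjusted p = 0.00207). Mc4r, the melanocortin-4 receptor, had 11.35, 11.47, 11.28, 10.08, 6.07 and 11.15, against 7.60, 8.48, 4.65 and 7.82 in ctl DT (3.93 ± 0.85, adjusted p = 0.00578). In both, aPdx1OE DT 5 was the lowest of its group. Ins2, Slc5a1, Inpp4b, a phosphoinositide phosphatase (4.54 ± 1.05, adjusted p = 0.0115), and Lrtm1 (4.18 ± 1.16, adjusted p = 0.0309) completed the risers. Edn3, endothelin 3, had 5.78, 7.12, 6.66, 7.62, 11.81 and 8.01 in aPdx1OE DT, against 10.92, 11.08, 11.84 and 12.78 in ctl DT (-4.62 ± 1.35, adjusted p = 0.0436). Itih2, Ttr, Fgf1, Dab1 and Fam46d fell by 2.42 to 3.31. Whether any of these 12 differs between the fits beyond the loss of 1 library was not tested.

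The risers were set against beta-cells through the b-cell reference and ctl noDT libraries, none of which is in the comparison. Of the 296 risers, 125 (42.2%) were higher in the b-cell reference than in ctl noDT and 32 (10.8%) were lower, against 16.9% and 17.6% of all genes tested. They are 4.46% of the 2804 genes higher in the b-cell reference. Of the 53 fallers, 12 (22.6%) were lower and 11 (20.8%) were higher in the b-cell reference. Without aPdx1OE DT 5, 305 of 658 risers (46.4%) were higher in the b-cell reference, and 129 of 272 fallers (47.4%) were lower in it. These shares carry no test.

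The same 10 libraries were then set beside the comparison without ablation, aPdx1OE noDT against ctl noDT, which shares no library with them. The driver, Cre and reporter alleles differ between those groups too. For genes that moved in both comparisons, the effects of these alleles and of Pdx1 cannot be told apart. In aPdx1OE noDT against ctl noDT, 721 genes passed, 392 higher (2.36%) and 329 lower (1.98%). Of the 296 risers after ablation, 98 (33.1%) also rose without it, and none fell. These are 25% of the genes that rose without ablation. A positive fold change without ablation was seen for 259 risers (87.5%), against 53.0% of all genes tested. Of the 53 fallers, 7 (13.2%) fell without ablation, where 1.98% of all genes did. A negative fold change without ablation was seen for 40 of the fallers (75.5%), against 47.0% of all genes tested. Of the 4 genes that mark the comparison, Pdx1, G6pc2 and Tagln3 rose without ablation too (5.36, 3.43 and 4.95), and Ffar1 had 1.62 (adjusted p = 0.0776). Without the 4 libraries against their label, 1 of them ctl noDT 8 in this comparison, 1167 genes passed and Ffar1 was higher by 1.83 ± 0.35 (adjusted p = 0.000641). Iapp was higher by 4.91 without ablation (adjusted p = 0.00297), where the value after it was 2.46, and 3.45 without aPdx1OE DT 5. Leaving out the 4 libraries against their label, the Iapp value without ablation was 5.51. The limma test of the difference between the 2 Iapp effects, with all 30 libraries, gave -2.45 ± 1.35 (adjusted p = 0.593).

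**Figure D4:**
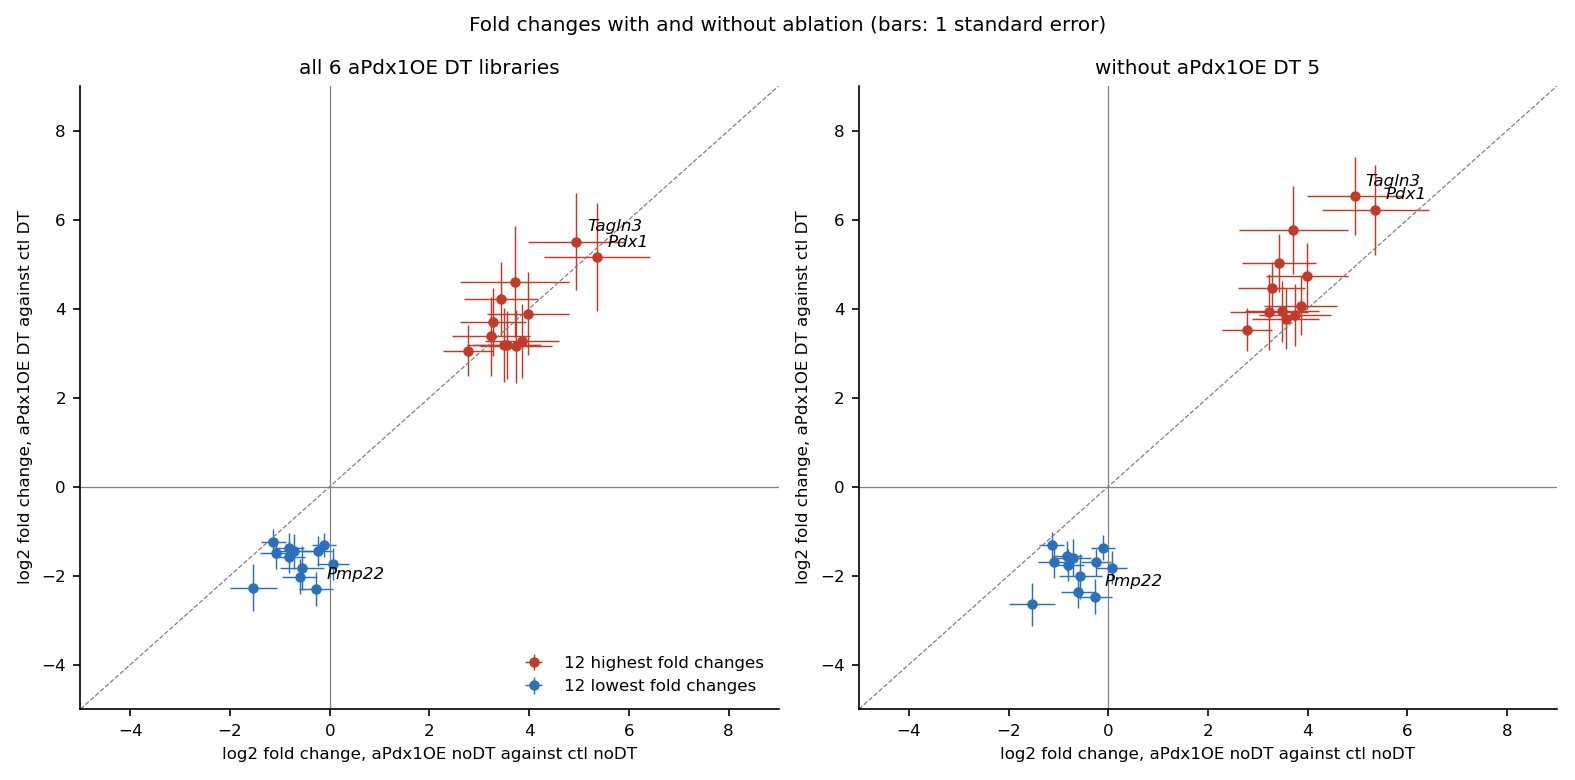
Log2 fold change after ablation (vertical axis, aPdx1OE DT against ctl DT) and without ablation (horizontal axis, aPdx1OE noDT against ctl noDT) for the 12 highest and 12 lowest fold changes after ablation among called genes with a mean above the median in the higher group, with 1 standard error, using all 6 aPdx1OE DT libraries on the left and leaving out aPdx1OE DT 5 on the right. The dashed line marks equal values, and the 12 risers lie to the right of 0 in both panels.

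The difference between the 2 effects was tested as an interaction. The groups with and without ablation also differ in RIP-DTR and in DT itself, which cannot be told apart from the loss of beta-cells. No gene passed with all 30 libraries or without aPdx1OE DT 5, with 1527 and 1731 genes at an unadjusted p under 0.05 in limma. For Pdx1 the interaction was -0.20 ± 1.62, for G6pc2 0.79 ± 1.12 and for Tagln3 0.56 ± 1.46. The interactions of Ffar1 (1.90 ± 0.81, unadjusted p = 0.024, adjusted p = 0.49), Ffar3 (2.55 ± 0.90, adjusted p = 0.42) and Ffar2 (1.92 ± 0.41, adjusted p = 0.16) were all positive. Those of Pmp22 (-2.03 ± 0.52, adjusted p = 0.30) and Rel (-1.81 ± 0.48, adjusted p = 0.32) were negative. A p above the threshold does not show that the effects are alike.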

How the data were processed

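RNA of sorted mouse islet cells was sequenced, aligned with GSNAP to GRCm38 and summarised per gene, per the submitters' processing notes. The authors deposited 1 table of 17775 genes in 30 libraries, holding log2 values that share the same quartiles and top value in every library, as quantile normalization gives. The counts behind it were not used here, so depth per library is unknown and no count model or counting interval applies. Each library has 32 to 97 distinct values below the first quartile in the 10 libraries compared, which limits precision there.

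The filter kept the 16633 genes that reached 5 in 4 or more libraries (1142 were left out), and these were tested with limma 3.58.1 in R 4.3.3: 1 mean per group over all 30 libraries, empirical Bayes with trend and robust variances, two-sided, Benjamini-Hochberg over all genes tested, threshold 0.05. A fold change is a difference of mean deposited log2 values. Exact permutation tests, two-sided, were run over libraries for the fixed genes. Sequences came from RefSeq and gene positions from GENCODE vM21, both on GRCm38, with Python 3.11.15, numpy 2.4.6 and pandas 2.3.3, and figures with matplotlib 3.10.9.

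Members, gene lists and tests were chosen with earlier results of these data known. Named genes were a fixed set, the 12 highest and 12 lowest called fold changes above the median level that also passed without aPdx1OE DT 5, the 6 highest and 6 lowest that passed only without it, and from every list as many as 4 in each direction by p, or 2 where it had no call. Genes named from the calls of a list without aPdx1OE DT 5, and Pcsk1, were added after their values were seen. Some genes that the rule names are not reported here. Likeness to the pattern of Pdx1 was not computed, since the libraries fall into separate clusters. Alternatives left out libraries, changed the filter, added offsets of 16 or 64 on the linear scale, weighted libraries, added covariates, or restricted the libraries.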

Additional observations from a re-analysis of the deposited data

Results flagged for a closer look

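A library was listed here when its gap to the nearest of its group exceeded Dixon's 95% critical value, looked for in 86 named genes in aPdx1OE DT (6 libraries) and ctl DT (4), and in the 4 marker genes in the other groups. Chance flags about 1 in 20 groups. In aPdx1OE DT 30 of 86 genes had such a library, in ctl DT 9 of 86. Of the 30, 26 were aPdx1OE DT 5. The genes include Pdx1, which set this library apart, and 12 named because they passed only without it, so part of that count is fixed by the choice of genes.

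In aPdx1OE DT 5 these genes were the lowest of 6. Among the markers and hormones, Pdx1 had 5.51, G6pc2 9.41, Ffar1 4.51, Ins1 12.11, Ins2 12.77, Iapp 12.13 and Ppy 15.69. Among the other risers, Ppp1r1a had 7.96, Igsf1 5.58, Kcnip1 5.64, Mlxipl 9.64, Ryr3 7.67, Cacna2d3 6.75, Fgl2 10.55 and Chrm3 5.29. Among genes that passed only without this library, Adra2a had 2.69, Slc5a1 5.32, Inpp4b 5.18, Lrtm1 5.32, Mc4r 6.07 and Pik3r1 10.55. Marco, a macrophage receptor, had 1.21. The library was the highest of 6 for Kctd12b at 11.63, Ttr at 20.54, Ddc at 12.64 and Edn3 at 11.81.

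Of the other aPdx1OE DT libraries, aPdx1OE DT 1 was the lowest for Rel at 5.41. aPdx1OE DT 6 was the highest for Ffar3 at 9.69 and the lowest for Slc18a2 at 5.06 and Fgf1 at 2.35.

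Within ctl DT, ctl DT 3 was the lowest for Tagln3 at 3.71 and Adra2a at 2.00, and the highest for Mafa at 2.00, Adh1 at 11.10 and Syt13 at 13.22. ctl DT 2 was the lowest for Arhgef3 at 9.12, and ctl DT 1 the highest for Slc38a5 at 11.37. ctl DT 4 was the lowest for Pcx at 6.21 and the highest for Slc7a2 at 17.92.

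In the other groups ctl noDT 8 was the highest of 8 for Pdx1 at 11.23, G6pc2 at 13.70 and Tagln3 at 11.27. b-cell reference 1 was the lowest of 7 for Ffar1 at 6.75, and b-cell reference 4 for Tagln3 at 4.64.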

How the results depend on the processing

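Over all genes, the count for aPdx1OE DT against ctl DT (349) was within 1.5 times without a filter (358), with a filter of 8 (275), with offsets of 16 (373) and 64 (368), without trend and robust variances (320) and with centred libraries (350). It was 961 without the 4 libraries against their label, 968 without aPdx1OE DT 5 and ctl noDT 8, 32 with array weights, 190 with Rn18s-rs5 as a covariate (598 also without aPdx1OE DT 5), 671 with the leukocyte marker mean as a covariate (1177 also without aPdx1OE DT 5), 76 with the 23 alpha-cell libraries, 0 with the 10 libraries alone (1377 at an unadjusted p under 0.05), 271 with 9 libraries alone, without aPdx1OE DT 5 (930 with the others kept, and 142 of the 271 among the 349), and 0 in limma's test against a log2 fold change of 1 (245 unadjusted). Leaving out 1 library at a time gave 138 to 930. The causes were not tested. An offset of 64 left 267 higher and 101 lower, against 296 and 53.

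The interaction (0) gave 1 gene with array weights and 0 to 3 genes when 1 library was left out. Without ctl DT 1 these were Gm10463, LOC100503946 and B230314M03Rik, and without ctl DT 2 Notch1, Ffar2 and Fam57b, all except Ffar2 named after their values were seen. For aPdx1OE noDT against ctl noDT (721) the count was 1167 without the libraries against their label, 1115 without aPdx1OE DT 5 and ctl noDT 8, 3110 with array weights, 114 with Rn18s-rs5 as a covariate (111 also without aPdx1OE DT 5), 441 with the 23 alpha-cell libraries and 301 to 985 leaving out 1 library. The b-cell reference against ctl noDT (5734) gave 9375 with array weights and 5103 to 5933 leaving out 1 library.

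Of the values for named genes under the alternatives, 1918 kept direction and side of the threshold, 264 lost the call, 142 gained it and 3 changed sign, none of them called. These were Nkx6-1 (0.12 without ctl DT 2), Mafa (0.14) and Smo (-0.13) without ctl DT 3. Leaving out 1 library at a time, they ranged from -0.51 to 0.12 (Nkx6-1), -0.34 to 0.14 (Mafa) and -0.13 to 0.68 (Smo). No paired analysis was possible because the labels give no replicate numbers that the groups share. Several alternatives, listed with 9 libraries alone, with ctl noDT 8, and with covariates without aPdx1OE DT 5, were chosen after seeing the data.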

Other observations

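These gene families were chosen after their values were seen, and no test of a family was run. Of 11 cadherin genes, whose products hold neighbouring cells together, 5 rose in aPdx1OE DT against ctl DT (Cdh1, Cdh2, Cdh4, Cdh8 and Cdh24) and none fell, where 1.78% of all genes rose. In aPdx1OE noDT against ctl noDT, 5 rose, where 2.36% of all genes did. Cdh24 averaged 7.95 ± 1.40 in aPdx1OE DT (SD, n = 6), against 4.27 ± 0.31 in ctl DT (n = 4), a log2 fold change of 3.68 ± 0.72 (adjusted p = 0.00569), and Cdh4 rose by 2.96 ± 0.58 (adjusted p = 0.00573). Of 22 gamma protocadherin genes, 6 rose and none fell, where 1.78% of all genes rose. They share exons, so reads can be divided between them in an uncertain way. The median log2 fold change over the 22 was 1.03, against 0.38 without ablation. Of 3 subunit genes tested of the nitric oxide receptor soluble guanylate cyclase, 2 rose, where 1.78% of all genes did. These were Gucy1a3, by 2.04 ± 0.53 (adjusted p = 0.0377), and Gucy1b3, by 2.10 ± 0.52 (adjusted p = 0.0312). Pde5a, which breaks down the cyclase's product cyclic GMP, also rose (2.55 ± 0.46, adjusted p = 0.00357). Gabbr2, a subunit of the GABA-B receptor, averaged 10.59 ± 0.85 in aPdx1OE DT (SD, n = 6), against 7.99 ± 0.54 in ctl DT (n = 4), and rose by 2.60 ± 0.35 (adjusted p = 0.000226).

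Ribosomal protein pseudogenes, whose reads can come from the parent genes, differed by -0.52 at the median of 156 tested on the log2 scale. With all 6 libraries 1 rose and none fell, where 1.78% and 0.319% of all genes did. Without aPdx1OE DT 5 the median was -0.81, and 17 fell and 1 rose, where 1.64% and 3.96% of all genes did. Without ablation 38 fell, where 1.98% of all genes did, and none rose.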
